A study of Mus musculus with 2 samples.

Results

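Alpha and beta tubulin are the paired subunits from which microtubules are built, and the mouse genome carries several genes, called isotypes, for each. The 10 isotypes described here were taken by name. They are the alpha genes Tuba1a, Tuba1b, Tuba1c, Tuba4a and Tuba8 and the beta genes Tubb1, Tubb2a, Tubb4b, Tubb5 and Tubb6. All 10 were found among the 21461 nuclear protein-coding genes of the tables, where 16 genes in all are named as alpha or beta tubulins. RNA came from primary cells of male adult C57BL/6J mice aged 5 to 6 weeks that the labels call megakaryocytes. There was a single group of 2 libraries, which the labels number as biological replicates 1 and 2 while naming the same donor for both, and no treatment, genotype or second group is given. Both libraries were ScriptSeq preparations of 100 ng RNA depleted of ribosomal RNA, with stated size ranges of 221 to 1000 nucleotides for library 1 and 200 to 1000 nucleotides for library 2. Levels are TPM (a transcript's share of all transcripts after division by its length) and expected counts (estimated reads per gene), and the SD is over the 2 libraries, so it measures only the spread between these libraries.

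Microtubules are hollow polymers of alpha and beta tubulin dimers that carry cargo, shape the cell and form the mitotic spindle. Isotypes of a family are nearly alike over most of the protein and differ mainly in the acidic tail at the carboxyl end, where motors bind and where enzymes remove or restore a terminal tyrosine and add glutamates. In megakaryocytes and platelets the beta isotype Tubb1 is known for building the marginal band, the coil of microtubules that gives a platelet its disc shape, and Tuba4a is known as a platelet alpha isotype.

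Library 1 held 42703213 summed expected counts and library 2 held 50532821. The defining genes of the labelled cell type were mostly near 0. Of 12 megakaryocyte markers, 2 reached 1 TPM in both libraries, the integrin subunits Itga2b and Itgb3, and Gp5 and Gp6 had 0 counts in both. All 8 neutrophil markers and all 6 monocyte markers reached 1 TPM in both, with a median over the list of 480 TPM and 418 TPM. The 8 erythroid markers together had 113 TPM in library 1 against 54.1 TPM in library 2. All 6 proliferation markers reached 1 TPM in both, with a median of 60.6 TPM. The libraries are therefore called here the libraries labelled megakaryocyte. In RNA from many cells together, fewer cells of a type and less RNA per cell cannot be told apart.

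The tails of Tuba4a and Tuba8 are shown first, because these alpha isotypes are made without the terminal tyrosine that Tuba1a, Tuba1b and Tuba1c are known to carry. The last 60 coding bases before the stop codon were read from the GENCODE M21 transcripts (GRCm38), 5′ to 3′ on the coding strand, and the capitals mark the last codon.
Tuba4a (chr1:75215625-75215684, minus strand): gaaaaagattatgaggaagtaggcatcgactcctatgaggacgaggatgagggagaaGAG
Tuba8 (chr6:121226017-121226076, plus strand): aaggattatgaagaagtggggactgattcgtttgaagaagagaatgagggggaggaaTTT
Tuba4a ends in a glutamate codon (GAG) and Tuba8 in a phenylalanine codon (TTT).

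In the beta tails below, printed the same way, the capitals mark every glutamate codon (GAA or GAG), the residue to which glutamate chains are added.
Tubb5 (chr17:35834985-35835044, minus strand): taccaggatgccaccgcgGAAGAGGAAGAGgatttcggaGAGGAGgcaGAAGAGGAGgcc
Tubb4b (chr2:25222311-25222370, minus strand): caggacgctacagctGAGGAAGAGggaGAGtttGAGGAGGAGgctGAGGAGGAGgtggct
Tubb2a (chr13:34074471-34074530, minus strand): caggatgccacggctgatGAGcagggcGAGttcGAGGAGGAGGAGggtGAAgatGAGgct
Tubb1 (chr2:174457820-174457879, plus strand): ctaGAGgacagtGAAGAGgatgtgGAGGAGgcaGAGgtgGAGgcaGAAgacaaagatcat
Tubb4b has 10 such codons among the last 20, Tubb5 has 9, and Tubb2a and Tubb1 have 8 each. Tubb1 ends in a histidine codon (CAT), while Tubb5, Tubb4b and Tubb2a end in an alanine codon (GCC or GCT).

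Tubb5 was the most abundant isotype, followed by Tuba1b and Tubb4b, and Tubb1 was the least abundant of the 10. Of the 10 isotypes, 9 reached at least 1 TPM in each library, where 42.4% of all 21461 nuclear protein-coding genes were. Tubb5 and Tuba1b were above 100 TPM in both libraries. Together the 10 isotypes reached 556.9 TPM in library 1 and, in library 2, 591.9 TPM, which was 0.232% and 0.221% of the TPM of nuclear protein-coding genes. In the order of mean levels, only Tubb6 and Tuba8 overlapped among the 9 pairs of neighbours.

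**Figure D1:**
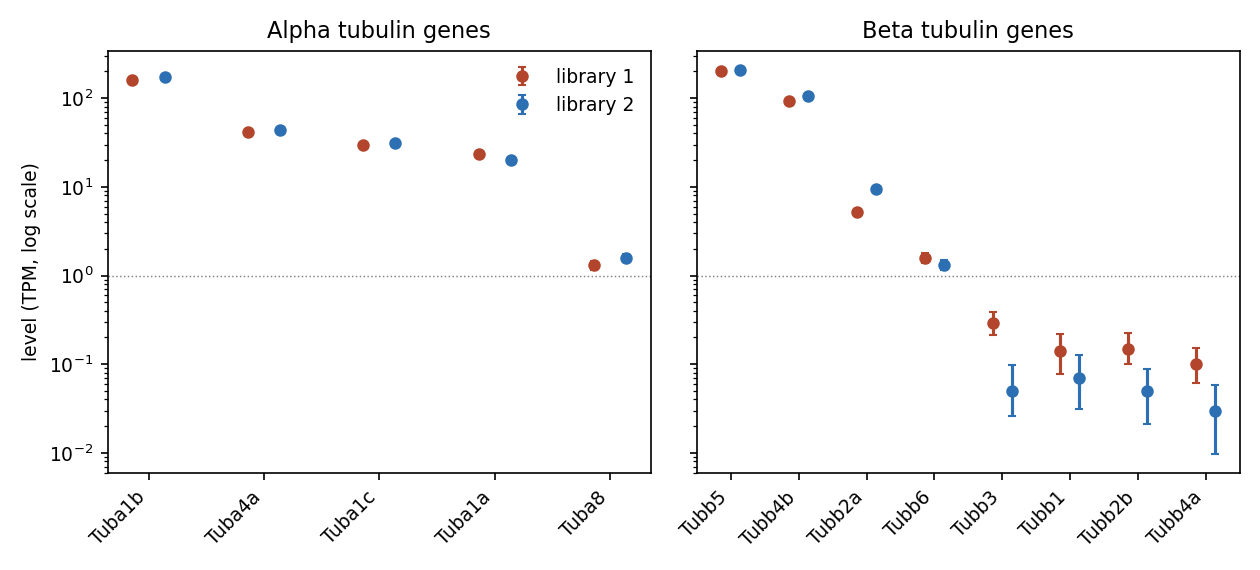
Level of each alpha (left) and beta (right) tubulin gene in TPM on a log scale, with library 1 in red and library 2 in blue; bars are 95% exact Poisson intervals of the counts, which cover counting error only, and the dotted line is 1 TPM. Tubb5 and Tuba1b lie above 100 TPM in both libraries, and Tubb1 lies below 1 TPM beside Tubb3, Tubb2b and Tubb4a, which are not among the 10; 3 alpha genes with 0 counts are not drawn.

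Among the alpha isotypes, Tuba1b, a ubiquitous isotype, was the most abundant. It had 160.4 TPM in library 1 and 172.5 TPM in library 2, with 24143 and 29476 counts. Its mean of 166 ± 8.51 TPM (SD, n = 2) stood above 98.9% of nuclear protein-coding genes. Tuba1b (chr15:98931425-98934565, minus strand) held 62.6% of the summed alpha TPM in library 1 and 64.1% in library 2, so its lead did not depend on the library.

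Tuba4a (chr1:75214228-75219865, minus strand), the platelet alpha isotype whose tail ends in glutamate, was next. It had 41.6 TPM in library 1 and 43.8 TPM in library 2 (42.7 ± 1.56 TPM, SD, n = 2), which was 16.2% and 16.3% of the alpha TPM. Tuba1b was 3.86 and 3.94 times as abundant as Tuba4a per length, so both libraries gave nearly the same ratio.

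Tuba1c (chr15:99029891-99038110, plus strand), another broadly expressed isotype, had 29.5 TPM in library 1 and 31.2 TPM in library 2. Tuba1a (chr15:98949837-98953703, minus strand), known for its high level in developing neurons, had 23.3 TPM in library 1 and 20.2 TPM in library 2. Their shares of the alpha TPM were 11.5% and 11.6% for Tuba1c and 9.10% and 7.49% for Tuba1a. The ranges of these isotypes over the libraries did not overlap each other or that of Tuba4a. The isotypes known to be made with a terminal tyrosine, Tuba1a, Tuba1b and Tuba1c, together made up 83.3% of the alpha TPM in library 1 and 83.2% in library 2. On complete coding transcripts alone, described further on, their share was 93.3% in library 1 and 94.1% in library 2.

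Tuba8 (chr6:121210696-121226854, plus strand) was the least abundant alpha isotype of the 10. It had 1.30 TPM in library 1 and 1.57 TPM in library 2, from 261 and 356 counts, and was 0.507% and 0.583% of the alpha TPM. The other 3 alpha genes, Tuba3a, Tuba3b and Tubal3, had 0 counts in both libraries. A count of 0 allows up to 0.0233 TPM of Tuba3a, 0.0193 TPM of Tuba3b and 0.0104 TPM of Tubal3 in library 1, and less in library 2.

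Among the beta isotypes, Tubb5 (chr17:35833921-35838306, minus strand), the common beta tubulin of dividing cells, led. It had 201.5 TPM in library 1 and 206.2 TPM in library 2, with 46209 and 54007 counts, and its mean of 204 ± 3.37 TPM (SD, n = 2) stood above 99.1% of nuclear protein-coding genes. Tubb5 made up 67.0% of the beta TPM in library 1 and 63.9% in library 2. Its level exceeded that of Tuba1b by 1.26 times in library 1 and 1.20 times in library 2.

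Tubb4b (chr2:25222160-25224702, minus strand), a broadly expressed isotype also known from cilia, had 92.3 TPM in library 1 and 105.7 TPM in library 2. It made up 30.7% and 32.8% of the beta TPM. Tubb5 was 2.18 times as abundant as Tubb4b in library 1 and 1.95 times in library 2. Tubb5 and Tubb4b together were 97.7% of the beta TPM in library 1 and 96.7% in library 2, so little was left for the other 3 listed beta isotypes.

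Tubb2a (chr13:34074274-34078007, minus strand), an isotype best known from brain, had 5.25 TPM in library 1 and 9.39 TPM in library 2. Its share of the beta TPM was 1.75% and 2.91%. Tubb6, an isotype known from muscle and other tissues, had 1.58 TPM in library 1 and 1.31 TPM in library 2, from 242 and 227 counts. These were 0.525% and 0.406% of the beta TPM, a range that did not overlap that of Tubb2a.

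Tubb1 (chr2:174450695-174457882, plus strand), the platelet isotype, was close to the floor of the measurement. It had 16 counts in library 1 and 9 counts in library 2, which gave 0.14 TPM (95% exact Poisson interval 0.0772 to 0.219 TPM) and 0.07 TPM (0.0309 to 0.128 TPM). It held 0.0466% of the beta TPM in library 1 and 0.0217% in library 2. Its mean level stood above 46.3% of the 21461 nuclear protein-coding genes, 8014 of which had 0 counts in both libraries. Such intervals hold counting error alone: the reads carry no molecular identifiers, so copies made by PCR were counted too.

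**Figure D2:**
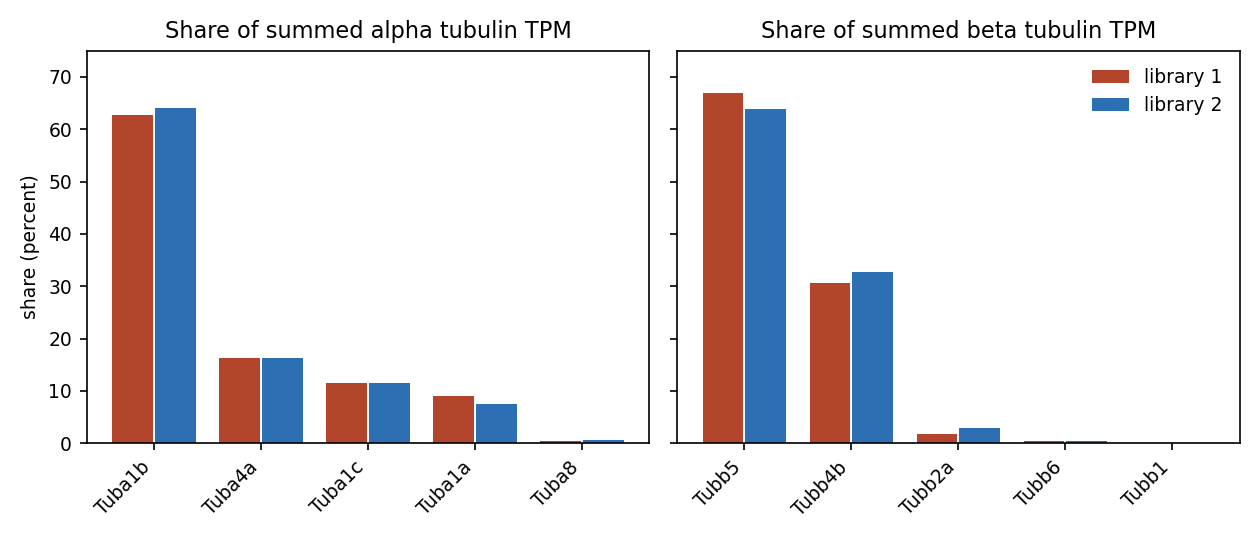
Share in percent of the summed TPM of the 5 listed alpha genes (left) and of the 5 listed beta genes (right), with library 1 in red and library 2 in blue; bars start at 0. Tuba1b holds 62.6% and 64.1% of alpha and Tubb5 67.0% and 63.9% of beta, and the Tubb1 bars, at 0.0466% and 0.0217%, are too low to see.

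The alpha and beta families were close to each other in summed level per length. In library 1 the 5 alpha isotypes summed to 256.2 TPM and the 5 beta isotypes to 300.7 TPM, and in library 2 the sums were 269.2 TPM and 322.7 TPM. The ratio of alpha to beta TPM was 0.852 in library 1 and 0.834 in library 2 (0.843 ± 0.0126, SD, n = 2). The ratio of their counts, which grows with transcript length, was lower, at 0.642 in library 1 and 0.645 in library 2.

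The transcripts behind these gene levels differed in how much of them is annotated as a complete coding sequence. The tables list a single transcript for Tuba1c, Tuba8, Tubb1, Tubb2a and Tubb6. The leading complete transcript took 98.6% of the Tuba1b TPM in library 1 and 99.4% in library 2, 93.4% and 93.2% of the Tubb4b TPM, and 92.9% and 93.9% of the Tubb5 TPM. The rest of Tubb4b was a processed transcript at 6.63% and 6.84%, and the largest remainder of Tubb5 was a transcript with a retained intron at 4.65% and 2.84%.

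For Tuba4a the complete coding transcript was not the leading one by TPM. Tuba4a-206, whose annotated coding sequence is incomplete, held 53.8% of the Tuba4a TPM in library 1 and 58.7% in library 2. The complete transcript Tuba4a-202 held 32.1% and 28.0%, or 13.3 TPM and 12.3 TPM. By expected counts, which also weigh transcript length, Tuba4a-202 led in both libraries. It had 3498 counts in library 1 and 3640 in library 2, against 2200 and 2836.5 for Tuba4a-206. Counted on complete coding transcripts alone, Tuba4a made up 6.13% of the alpha TPM in library 1 and 5.19% in library 2, and it lay below Tuba1c, at 29.5 TPM and 31.2 TPM, and below Tuba1a, at 15.2 TPM and 20.2 TPM. The rank of Tuba4a among the alpha isotypes thus differed between gene and complete transcript levels.

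For Tuba1a the libraries differed. The complete transcript Tuba1a-201 held 65.2% of the Tuba1a TPM in library 1 and 100% in library 2. The remaining 34.8% in library 1 was a transcript of 610 bases with 314 counts in library 1 and 0 counts in library 2. The tables file it under Tuba1a, while GENCODE M21 places it in the gene Gm49450 (chr15:98932137-98953551, minus strand), which spans the locus from Tuba1b to Tuba1a. The effective length of Tuba1a, by which its counts were divided, was 1063 bases in library 1 and 1411 bases in library 2.

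**Figure D3:**
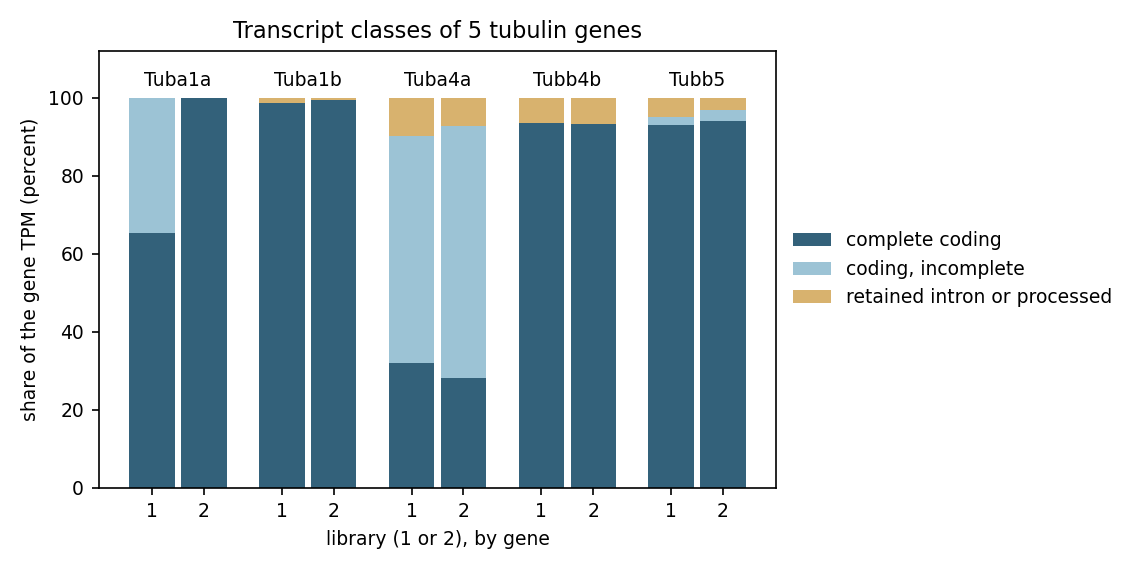
Share in percent of each gene's TPM in complete coding transcripts (dark blue), coding transcripts with an incomplete coding sequence (light blue) and transcripts with a retained intron or processed transcripts (tan), for the 5 listed genes with more than one transcript in the tables; each gene has library 1 on the left and library 2 on the right. Complete transcripts hold 32.1% and 28.0% of Tuba4a, and 65.2% and 100% of Tuba1a.

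Because tubulin genes are near copies of each other, the levels rest on how reads were divided among them. Each reference transcript was cut into all its windows of 100 bases, and the share found in no other annotated gene, on either strand, was counted. All windows of Tubb5, Tubb6 and Tubb1 were their own. The share was 87.5% for Tuba8, 69.4% for Tubb4b, 63.1% for Tubb2a and 53.3% for Tuba4a. It was lowest in the cluster on chromosome 15, at 46.6% for Tuba1c, 34.2% for Tuba1a and 27.0% for Tuba1b. These shares are for the genes of GENCODE M21, while the reads were mapped with GENCODE M4. Gm49450, whose transcript is filed under Tuba1a in the data, counted as another gene here and held 31.2% of the Tuba1a windows.

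Tuba1b had 48.6% of its windows in common with Tuba1c and 27.3% with Tuba1a, so much of each level depends on how the authors' counting split shared reads. Tubb2a had 35.9% in common with Tubb2b, and Tubb4b had 27.4% in common with the pseudogene Tubb4b-ps1. The shared windows of the Tuba4a reference transcript, Tuba4a-202, lay in Stk16, a kinase gene on the opposite strand, at 46.7%. Stk16 lies at chr1:75210838-75215606, while Tuba4a-206 lies outside it, at chr1:75215612-75217434. Stk16 had 17.7 TPM in library 1 and 23.2 TPM in library 2. The sources used here do not state if strand entered the counting. Expected counts were whole numbers for Tuba4a (6084 and 6872) and for Stk16 (2088 and 2490), so neither held a fraction of a read. The posterior standard deviation of the Tuba4a count, described next, was 0 in both libraries. Tuba1c, which shares windows with Tuba1b, had fractional counts of 5187.1 and 6182.45. Whether each read from the windows shared with Stk16 went to the right gene was not tested.

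The authors' deposited posterior standard deviation of a count was small for the listed isotypes. It was largest for Tuba1c, at 1.16% of the count in library 1 and 1.17% in library 2, and for Tuba1a, at 0.893% and 0.816%. It was 0 for Tuba4a, Tuba8, Tubb1, Tubb5 and Tubb6.

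**Figure D4:**
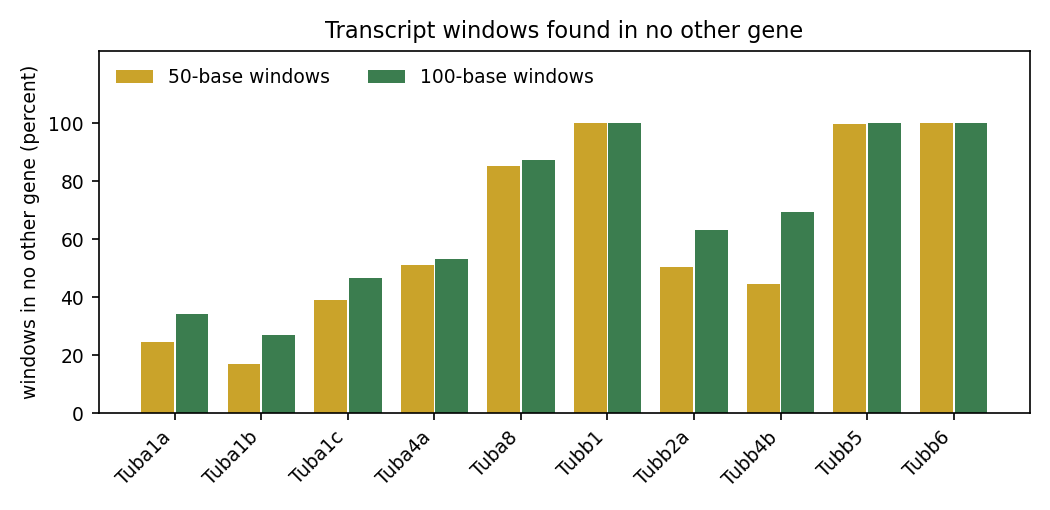
Percent of the windows of each reference transcript that occur in no other gene annotated in GENCODE M21 on either strand, for windows of 50 bases (gold) and 100 bases (green). Tubb1, Tubb5 and Tubb6 are at or near 100% and Tuba1b is lowest, at 27.0% for 100 bases.

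The libraries were then compared with each other. This compares 2 libraries and not conditions, and the test covers counting error only. Each gene with a mean count of 10 or more was tested with a two-sided exact binomial test on TMM-scaled counts with Benjamini-Hochberg adjustment over 12081 genes, calling an adjusted p under 0.05. Of the 10 isotypes, 7 were called, where 65.6% of all genes tested were, so the share called was near that of all genes. Tuba1a, Tuba1b, Tubb2a and Tubb4b were lower in library 1, which is 4 of 10 where 33.1% of all genes were called lower.

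Tubb2a had the clearest difference. Its 715 counts in library 1 and 1443 counts in library 2 gave a log2 ratio of library 1 over library 2 of -0.77 (95% interval -0.90 to -0.64), with an adjusted p of 2.9e-31 in the exact test. Both Tubb2a and Tubb1 passed a 1.5-fold ratio, which 18.0% of all genes did. With an assumed biological coefficient of variation of 0.1 in edgeR's exact test, Tubb2a alone was called among the 10 (adjusted p = 0.00505), where 12.9% of all genes were. The exact binomial test, which covers counting error only, called all 6 monocyte markers lower in library 1, against 33.1% of the genes tested. Their levels summed to 7702 and 10091 TPM in libraries 1 and 2, with 5969 and 8031 TPM from Lyz2 alone. The same test called 7 of the 8 neutrophil markers higher in library 1 and 1 lower, beside 3936 of 12081 genes called higher. Neutrophil levels summed to 14343 and 13613.5 TPM. No monocyte or neutrophil marker passed 1.5-fold or was called by edgeR at the assumed coefficient, while 6 of the 8 erythroid markers were called there. The summed erythroid markers stood higher in library 1, as given above. No monocyte, neutrophil or erythroid marker was at 0 counts. Of 4 megakaryocyte markers tested, the exact test called Itgb3 higher and 2 lower in library 1, beside 65.6% of all genes called. The 2 were Itga2b, with 522 and 745 counts, and Gp1bb, with 0 and 35 rounded counts. Gp1bb alone of the 4 was called by edgeR at the assumed coefficient. The part of these markers in the Tubb2a difference was not tested.

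The other called differences were small. The log2 ratio was -0.14 for Tuba1a, -0.12 for Tubb4b, -0.04 for Tuba1b, 0.02 for Tubb5, 0.07 for Tuba4a and 0.34 for Tubb6, and their adjusted p in edgeR's exact test at that coefficient lay between 0.5 and 0.994. By the ratio of TPM in place of counts, the sign was the other way for Tuba1a, Tuba4a and Tubb5. Tuba1c (log2 ratio -0.01, adjusted p = 0.844), Tuba8 (-0.20, adjusted p = 0.124) and Tubb1 (1.08, adjusted p = 0.103) were not called in the exact binomial test. The 95% interval of the Tubb1 ratio ran from -0.19 to 2.44, so 16 and 9 counts bound the ratio only loosely.

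The 3 beta genes outside the 10 were low and differed between the libraries. Tubb3, the neuronal beta tubulin, had 48 counts in library 1 and 10 counts in library 2 (0.29 TPM and 0.05 TPM). Tubb2b, the near copy of Tubb2a, had 26 and 9 rounded counts, and Tubb4a, a brain isotype, had 20 and 6. All 3 were higher in library 1, with log2 ratios of 2.51 for Tubb3, 1.78 for Tubb2b and 1.98 for Tubb4a and adjusted p of 3.12e-08, 0.00192 and 0.00447 in the exact test. Tubb2b and Tubb2a thus differed in opposite directions, and the posterior standard deviation of the Tubb2b count was 10.8% and 12.7% of it. Of all 12081 genes tested, 3936 were called higher in library 1 in the exact test. Of the 8 erythroid markers, 7 were also called higher in library 1, none was at 0 counts, and their part in these differences was not tested.

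**Figure D5:**
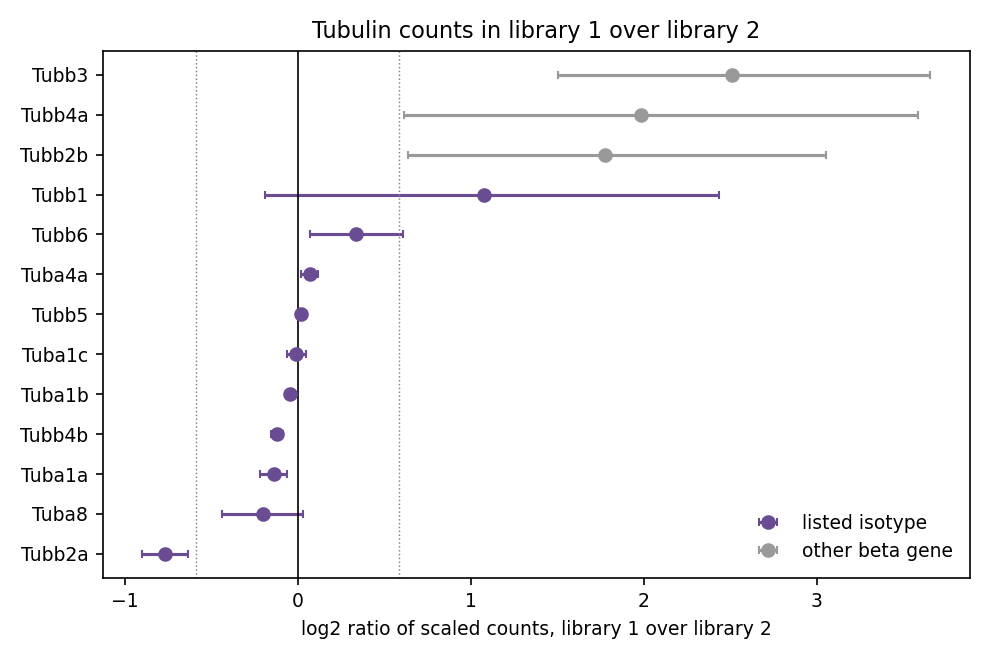
Log2 ratio of TMM-scaled counts in library 1 over library 2 for the listed isotypes (purple) and the 3 other beta genes (grey), with 95% intervals that cover counting error only; dotted lines mark 1.5-fold. Tubb2a lies at -0.77, below the lower line, and Tubb3, Tubb4a and Tubb2b lie above the upper line at 2.51, 1.98 and 1.78.

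Genes that make, fold and modify tubulin were read from lists chosen by function. A list of 12 genes held the gamma tubulin ring, which starts new microtubules, together with the delta and epsilon tubulin genes Tubd1 and Tube1, which belong to centrioles and not to the ring. Of the 12, 10 reached 1 TPM in both libraries, Tubd1 and Tube1 among them, with a median of 6.03 TPM, against 0.28 TPM over all nuclear protein-coding genes. The most abundant were the ring subunits Tubgcp4, at 8.51 TPM in library 1 and 11.8 TPM in library 2, and Tubgcp3, at 9.35 and 9.49 TPM, and gamma tubulin Tubg1, at 8.55 and 8.84 TPM. The second gamma tubulin gene, Tubg2, had 0 counts in both libraries. Of 11 tested, 2 were called higher and 5 lower in library 1, Tube1 being among the higher, and 65.6% of all genes tested were called, so 7 of 11 is near that share. Mzt2, lower in library 1 (log2 ratio -1.41), and Tube1, higher (0.77), passed 1.5-fold, beside 18.0% of all genes. These 2 were also called by edgeR's exact test at the coefficient of 0.1 (adjusted p = 0.000332 and 0.00778), beside 12.9% of all genes.

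Newly made tubulin passes through prefoldin and the chaperonin TRiC before cofactors join alpha to beta. All 7 chaperonin genes with a protein-coding row reached 1 TPM in both libraries, with a median of 66.0 TPM, led by Tcp1 (91.4 and 98.6 TPM), Cct8 (82.2 and 106.9 TPM) and Cct5 (64.4 and 70.3 TPM). Of these 7, none was called higher and 6 were called lower in library 1, where 33.1% of all genes tested were called lower. None passed 1.5-fold, and none was called by edgeR's exact test at the coefficient of 0.1. All 6 prefoldin genes reached 1 TPM, with a median of 28.4 TPM, led by Pfdn5 (85.5 and 120.4 TPM), Pfdn6 (39.0 and 39.8 TPM) and Vbp1 (35.4 and 36.0 TPM), and 2 were called higher and 2 lower in library 1, a share near the 65.6% called among all genes.

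All 7 folding cofactor genes reached 1 TPM in both libraries, with a median of 10.3 TPM. They were led by Tbca (29.2 TPM in library 1 and 27.1 TPM in library 2), a beta tubulin cofactor, Tbce (12.3 and 13.5 TPM), an alpha tubulin cofactor, and Tbcb (7.49 and 13.2 TPM), another alpha tubulin cofactor. Of the 7, 1 was called higher and 2 lower in library 1, where 65.6% of all genes were called in either direction. Tbcb, lower in library 1, alone of the 7 passed 1.5-fold (log2 ratio -0.81), beside 18.0% of all genes. It alone was also called by edgeR's exact test at the coefficient of 0.1 (adjusted p = 0.00294), beside 12.9% of all genes. Tubulin messages are known to be destroyed when free tubulin builds up, through the factor Ttc5, its adaptor Scaper and the deadenylase subunit Cnot11. All 3 were detected, Ttc5 at 7.64 and 8.60 TPM, Scaper at 3.99 and 3.21 TPM and Cnot11 at 4.55 and 5.57 TPM. Scaper alone of the 3 was called, higher in library 1, beside the same 65.6% of all genes.

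Enzymes that act on tubulin tails were mostly low. Ttl, which restores the terminal tyrosine, had 0.75 TPM in library 1 and 0.98 TPM in library 2. The vasohibins, which remove it, had 9 and 0 counts for Vash1 and 0 and 8 counts for Vash2, while their partner Svbp had 2.83 and 2.95 TPM. Neither gene of this group that was tested, Ttl and Svbp, was called, where 65.6% of all genes tested were. Ttl and both vasohibins lay under 1 TPM in both libraries.

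Of 8 glutamylases, 2 reached 1 TPM in both libraries, Ttll5 at 3.18 and 2.61 TPM and Ttll4 at 3.09 and 2.57 TPM, and Ttll1 stood at 1.10 and 0.88 TPM. Ttll6, Ttll7, Ttll9, Ttll11 and Ttll13 had between 0 and 12 counts. Of 3 glutamylases tested, Ttll5 was called, higher in library 1, where 65.6% of all genes tested were called in either direction. Of 3 glycylases, Ttll3 had 1.97 and 2.92 TPM, and Ttll8 and Ttll10 had at most 2 counts. Ttll3, the only 1 tested, was called lower in library 1 (log2 ratio -0.58), where 33.1% of all genes tested were. It was not called by edgeR's exact test at the coefficient of 0.1 (adjusted p = 0.0975). Agtpbp1, which trims glutamate chains and the end of the tail, was the most abundant tail enzyme listed, at 26.6 TPM in library 1 and 20.7 TPM in library 2. Of the other 5 deglutamylases, Agbl5 had 0.90 and 0.96 TPM, Agbl3 had 0.27 and 0.32 TPM, and Agbl1, Agbl2 and Agbl4 had 0 counts in both. Of 3 deglutamylases tested, Agtpbp1 and Agbl5 (adjusted p = 0.0498 in the exact binomial test) were called higher in library 1, near the 65.6% of all genes called.

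The genes for acetylation of alpha tubulin all reached 1 TPM in both libraries. The acetylase Atat1 had 1.89 TPM in library 1 and 1.43 TPM in library 2, the deacetylase Hdac6 1.98 and 2.54 TPM, and the deacetylase Sirt2 8.61 and 7.40 TPM. Atat1 and Sirt2, 2 of the 3, were called higher in library 1, which is near the 65.6% of all genes called.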

How the data were processed

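Total RNA was sequenced in 2 libraries of 1 group, with 42703213 and 50532821 summed expected counts. Mapping used mm10 and GENCODE M4, per the text files the authors deposited; the aligner and quantifier are not given in the sources used here. Values deposited by the authors were expected counts (estimated reads per gene and transcript, not normalized), TPM, posterior mean TPM, the percent of a gene's TPM in each transcript, and intervals for TPM, a signal column that was not used.

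Symbols, gene types and transcripts came from GENCODE M21 of the same build. The 69691 rows held 43346 mouse gene IDs, 42462 of which had a match, and 21461 were nuclear protein-coding. Cct6a carries another gene type there and was not counted. Expected counts were rounded to whole numbers. TMM factors came from edgeR 4.0.16 in R 4.3.3, and genes whose mean count was at least 10 were compared by a two-sided exact binomial test (SciPy 1.17.1) with Benjamini-Hochberg adjustment. With 1 library on each side, edgeR's quasi-likelihood test has no residual degrees of freedom. A biological coefficient of variation of 0.1 in edgeR's exact test is an assumption. Limits for 0 counts are 3 counts per library. Size factors from DESeq2 1.42.0 were an alternative. The procedure was tested on simulated counts with Poisson error only, so that test cannot show how it behaves under wider spread.

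The text names all listed isotypes, the other alpha and beta tubulin genes, the 3 genes of highest mean TPM in each list, and list genes under 1 TPM in both libraries. Some other list genes are named where a level or call of theirs is described. Members and lists were chosen with earlier results of these data known. Some genes and sequences that these rules take are not reported here.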

Additional observations from a re-analysis of the deposited data

Results flagged for a closer look

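Some processed pseudogenes that share windows of 100 bases with a listed isotype, and that enter none of the comparisons above, had more than 3 counts in both libraries. No control samples exist in the series, so the 3 counts are the limit used. Gm5620, which shares windows with Tuba1a, Tuba1b and Tuba1c, had 257.44 expected counts in library 1 and 326.96 in library 2. Gm14150 had 61.88 and 86.99, Gm17383 had 37.9 and 20.25, and Tubb4b-ps1 had 5.99 and 38.7. Among the 9 processed pseudogenes that share such windows and have a count given, these 4 alone passed the limit in both libraries. Sharing genes with no count given, such as Tubb2a-ps2, which shares windows with Tubb2a, were left out. Summed over the 9, the counts were 367.4 in library 1 and 472.9 in library 2.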

How the results depend on the processing

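No paired analysis was possible because the libraries form a single group. Tuba1b held 63.4% of the alpha TPM as the mean of both libraries, 65.1% on protein-coding transcripts and 72.6% on complete coding transcripts. Tubb5 held 65.4% of the beta TPM, and 76.7% by expected counts, which also weigh transcript length. The alpha to beta ratio was 0.843, against 0.644 by expected counts and 0.778 on complete coding transcripts. The alternatives on complete coding transcripts were chosen after seeing the data. Without replicate 1 or replicate 2, the Tuba1b share ranged from 62.6% to 64.1%, the Tubb5 share from 63.9% to 67.0%, the ratio from 0.834 to 0.852, and 9 isotypes stayed at 1 TPM. The count of isotypes called was 7, and 7 with DESeq2 size factors or no filter, 6 with total counts, 1 with edgeR's exact test at a coefficient of 0.1 and 2 by a 1.5-fold ratio. With total counts Tuba1b missed the threshold (adjusted p = 0.0541, exact binomial test). The log2 ratio turned to 0.21 for Tuba1a, -0.0747 for Tuba4a and -0.0337 for Tubb5 by TPM, to -0.0502 for Tubb5 by TPM of complete coding transcripts, where Tuba1a stood at -0.41, and to 0.00844 for Tuba1c by total counts. The median log2 TPM ratio over all tested genes was itself -0.07. Effective lengths entered the TPM of every gene, and those of Tuba1a are given above. For Tuba4a they were 1461 bases in library 1 and 1378 in library 2, and for Tubb5 2289 and 2298. The cause of the changes of sign was not tested. Depth limits the genes with few counts, Tubb1, Tubb3, Tubb2b and Tubb4a, whose ratios rest on 6 to 48 counts per library.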

Other observations

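Genes that bind, cut or move along microtubules ranged from 0 counts to levels above that of Tuba1b. Of 12 genes for proteins that bind tubulin or microtubules, 10 reached 1 TPM in both libraries, with a median of 8.76 TPM. Stmn1, which sequesters tubulin dimers, had 196 TPM in library 1 and 225.4 TPM in library 2, the end-binding protein gene Mapre1 44.1 and 48.4 TPM, and the spindle assembly factor gene Tpx2 30.3 and 34.6 TPM. Map7 had 0.76 and 0.95 TPM, and Mapre3 had 5 and 12 counts. Of 11 tested, 2 were called higher and 4 lower in library 1 in the exact binomial test between libraries, where 65.6% of all genes tested were called.

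All 9 listed motor genes reached 1 TPM in both libraries, with a median of 26.7 TPM. The dynein light chain gene Dynll1 had 84.1 TPM in library 1 and 86.1 TPM in library 2, the spindle kinesin gene Kif11 56.9 and 60.6 TPM, and the transport kinesin gene Kif5b 52.4 and 50.2 TPM. Of the 9, 4 were called higher and 4 lower in library 1, beside 65.6% called among all genes, and none by edgeR's exact test at an assumed coefficient of variation of 0.1. Of 6 severing enzyme genes, 4 reached 1 TPM in both libraries, led by Fignl1 (16.0 and 18.0 TPM), Katna1 (14.8 and 13.4 TPM) and Spast (7.59 and 8.56 TPM). Katnal1 had 0.59 and 0.70 TPM and Fign had 0 counts in both libraries. Of 5 severing genes tested, 1 was called higher and 3 lower in library 1, where 65.6% of all genes were called in either direction. None was called by edgeR's exact test at that coefficient.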
